A study of Mus musculus with 6 samples.

Results

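The cytosolic ribosomal protein genes, which encode the protein part of the ribosomes that translate nuclear mRNAs, were followed through single-cell libraries of mouse hypothalamus. Members were taken by symbol: those that begin with Rpl or Rps and a number, with or without a short suffix, together with Rpsa, Rplp0, Rplp1 and Rplp2, and without the Rps6k kinases and the -ps pseudogenes. This rule found 85 of the 18204 genes in the count tables, 50 with large-subunit and 35 with small-subunit symbols, and it used no measured value. The libraries were made by Drop-seq, which captures the 3′ ends of mRNAs from single cells in droplets and counts molecules by unique molecular identifiers (UMIs). There were 3 libraries labelled WT and 3 labelled IDOL KO, all from the hypothalamus of C57BL/6J mice aged 8 weeks; no allele, sex, treatment or breeding is given in the labels. IDOL, encoded by Mylip, is a ubiquitin ligase known for degrading receptors of the low-density lipoprotein family. Mylip had 68, 27 and 43 UMIs in WT and 2, 0 and 0 in KO replicates 1, 2 and 3, so the counts follow the labels. Nothing in the labels ties a library to its own animal, so p-values measure the spread between libraries, which may be technical.

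A ribosome joins a small subunit, which reads the mRNA, to a large subunit, which links amino acids, and each subunit holds 1 copy of most of its proteins. Several ribosomal proteins have a second gene that encodes a close relative, such as Rpl22l1 beside Rpl22 and Rps27l beside Rps27, and the level of such a paralog can differ between tissues. Most mRNAs of these genes are known to begin with a 5′ terminal oligopyrimidine tract, an uninterrupted run of C and T through which mTOR signalling controls their translation. The hypothalamus mixes peptide-secreting neurons with glia, vascular cells and tanycytes, which line the third ventricle.

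The start of the gene was searched for runs of C and T. RefSeq promoter windows on GRCm38.p6 were at hand for 62 members. A run of C and T of at least 8 bases on the coding strand, reaching within 5 bases of the annotated start, was found in 24 of them (38.7%). Among all other genes with a window 3044 of 26963 had such a run (11.3%), and among the genes of the mitochondrial ribosome 7 of 69 (10.1%). Of 11 genes outside the list with a known terminal oligopyrimidine tract, only 3 had such a run (27.3%). A window without a run therefore does not show that a tract is absent. The sequences below give 40 bases before the annotated start and 20 from it, with the longest run of C and T near the start in capitals, for Rpl4, among the members of most UMIs, and Rpl22l1, Rpl22, Rps27 and Rps27l, the 2 paralog pairs whose balance differed most between cell types.
Rpl4: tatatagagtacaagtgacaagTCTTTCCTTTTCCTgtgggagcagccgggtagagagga
Rpl22l1: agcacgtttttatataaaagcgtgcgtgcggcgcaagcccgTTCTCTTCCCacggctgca
Rpl22: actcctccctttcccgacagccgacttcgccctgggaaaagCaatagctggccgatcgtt
Rps27: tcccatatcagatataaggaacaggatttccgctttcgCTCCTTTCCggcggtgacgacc
Rps27l: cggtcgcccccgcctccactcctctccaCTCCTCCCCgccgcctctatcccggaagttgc
The windows lie at chr9:64173347-64173406, plus strand (Rpl4), chr3:28805468-28805527, plus strand (Rpl22l1), chr4:152325686-152325745, plus strand (Rpl22), chr3:90213629-90213688, minus strand (Rps27) and chr9:66946046-66946105, plus strand (Rps27l). Rpl22l1 carried a run of 10 bases and Rpl22 a single C at the start used, which of the 2 starts listed for that gene is the nearer to its GENCODE M21 start. A match describes letters in the window and not a start measured in these cells.

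The members held 353703 UMIs, between 1.98% and 2.71% of the UMIs of a library. Levels are given as CPM, UMIs scaled to a total of 1000000 in the class and library, and since 1 end of each mRNA is counted they compare a gene across cells better than genes with each other. Over all cells the median member had 211 CPM, with a range from 0.304 to 888 CPM, and the 10 members of highest CPM held 31.1% of all member UMIs. Among them were Rps14 (888 CPM), Rplp1 (865), Rpl4 (798), Rpl13a (785), Rpl8 (689), Rps3 (685), Rps9 (660), Rps21 (604) and Rpl14 (589). Rplp1, with Rplp0 and Rplp2, forms the stalk of the large subunit that recruits elongation factors. At the other end Rpl39l had 5 UMIs, Rps3a2 8, Rpl10l 10 and Rps3a3 12; Rpl39l and Rpl10l are retrogenes known from the testis, and Rps3a2 and Rps3a3 are annotated as pseudogenes. Low counts also kept Rpl15 (778 UMIs) and Rpl28 (341 UMIs) from the comparison of cell types, which tested 79 members. Copies limit what a count can say: over the members a median of 56.2% of the 50-base words in the last 300 bases of the transcripts also occur in transcripts of other genes, and how the authors counted reads that fit several genes is not given in the sources used here. The 45 members with at least 50% of such words shared had a median of 212 CPM and the 22 members with none shared 218 CPM.

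Of 13994 barcodes, 9449 had at least 300 genes and at most 20% mitochondrial UMIs, 116 called doublets were left out, and 9333 cells were used. A library held 1036 to 1946 of these cells and 1514439 to 3644549 UMIs, with a median of 804 to 1017 UMIs per cell. Libraries shared 3 barcodes. Cells were clustered without the members, and clusters were named by fixed marker genes; names such as neurons and microglia stand for neuron-like and microglia-like clusters. The 8 classes with at least 20 cells in every library were neurons (2569 cells), astrocytes (1647), oligodendrocytes (1144), endothelial cells (722), oligodendrocyte precursors (590), tanycytes (420), microglia (391) and mural cells (364). Of the 2 microglia clusters 1 was led by Ccl4, Il1a, Ccl3 and Tnf, which encode cytokines of activated microglia. Clusters holding 845 cells stayed unnamed, with a member share of 2.61% ± 0.362 of UMIs (SD, n = 6 libraries).

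The summed share of UMIs on the members set the cell types apart. Of the 8 classes microglia, the resident macrophages of the brain, had the highest share: 3.66%, 2.97% and 3.94% in WT and 3.36%, 3.72% and 4.41% in KO, a mean of 3.68% ± 0.493 (SD, n = 6). Astrocytes, the glia that support synapses and vessels, had the lowest: 1.33%, 0.955% and 1.24% in WT and 0.953%, 1.24% and 1.70% in KO, a mean of 1.24% ± 0.278 (SD, n = 6). No astrocyte value reached the lowest microglia value, and the ratio of the 2 classes within a library ran from 2.59 to 3.52. Between them lay endothelial cells (3.08% ± 0.413), neurons (2.59% ± 0.286), mural cells (2.58% ± 0.352), tanycytes (2.38% ± 0.263), oligodendrocyte precursors (1.62% ± 0.158) and oligodendrocytes (1.39% ± 0.123; all SD, n = 6). Within libraries microglia exceeded endothelial cells, endothelial cells neurons, tanycytes precursors, and precursors oligodendrocytes in 6 of 6. Mural cells were above tanycytes, and oligodendrocytes above astrocytes, in 5 of 6 libraries, while neurons were above mural cells in 3 of 6, so neurons and mural cells had no order. The perivascular macrophages, a class of 67 cells too small for a test, had a share of 4.54% ± 0.647 (SD, n = 6). A cluster of 44 cells led by H2-Eb1, H2-Aa and Cd74, genes of antigen presentation, had 8.21% ± 1.62 (SD, n = 5 libraries), the highest of all, from 0 to 17 cells a library.

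**Figure D1:**
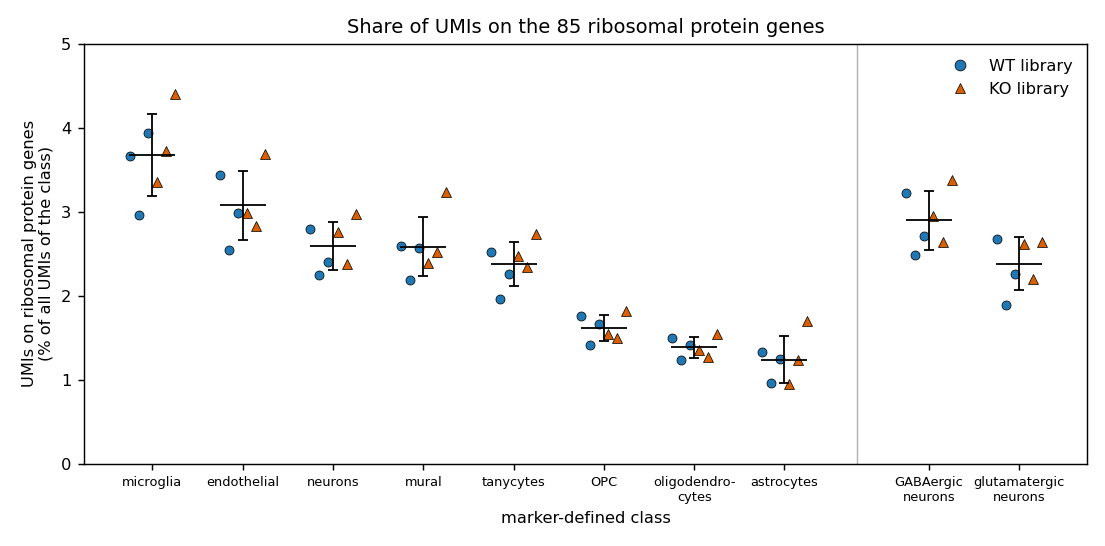
Percent of UMIs on the ribosomal protein genes (y axis) in each cell class (x axis; OPC, oligodendrocyte precursors), with 1 point per library, WT and KO in different colours, and the mean and SD over 6 libraries. Microglia average 3.68% and astrocytes 1.24%, and WT and KO points overlap in every class shown.

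The libraries kept an order of their own. The library KO replicate 3 had the highest member share in 8 of 8 classes, on average 1.19 times the class mean, and WT replicate 2 the lowest in 7 of 8, on average 0.839 times. KO replicate 3 also had the lowest mitochondrial share of UMIs (2.92%, against 4.04% to 6.67% in the others) and the highest summed share of 15 immediate early genes (0.923%, against 0.459% to 0.791%). The part of these differences in the member share was not tested.

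Depth per cell moved with the member share in neurons, astrocytes, microglia and mural cells. In neurons the share was 1.71% in cells under 500 UMIs, 1.59% in cells of 500 to 1500 UMIs and 2.79% in cells over 1500 UMIs (244, 974 and 1351 cells). In astrocytes it was 0.822%, 0.949% and 2.26% over the same ranges, and 123 of 1647 astrocytes had over 1500 UMIs; in that range astrocytes lay above precursors and oligodendrocytes. Microglia went from 2.97% under 500 UMIs to 3.80% at 500 to 1500 UMIs (100 and 279 cells). Endothelial cells (3.05%, 3.02% and 3.33%), oligodendrocyte precursors (1.60%, 1.61% and 1.71%), oligodendrocytes (1.39%, 1.42% and 1.33%) and tanycytes (2.28%, 2.28% and 2.40%) held nearly level values. Mural cells went from 2.10% to 2.59% and 3.04% (92, 230 and 42 cells, the last from 3 libraries with at least 5 such cells). The share of Malat1, an RNA that stays in the nucleus, was lowest in the deepest cells of neurons (2.20%, 2.49% and 0.925%) and astrocytes (5.24%, 4.68% and 1.72%). Astrocytes also had the highest Malat1 share of the 8 classes (4.09% ± 0.620) and the highest mitochondrial share (8.69% ± 2.36; SD, n = 6), and the part of depth and RNA quality in the member share was not tested.

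**Figure D2:**
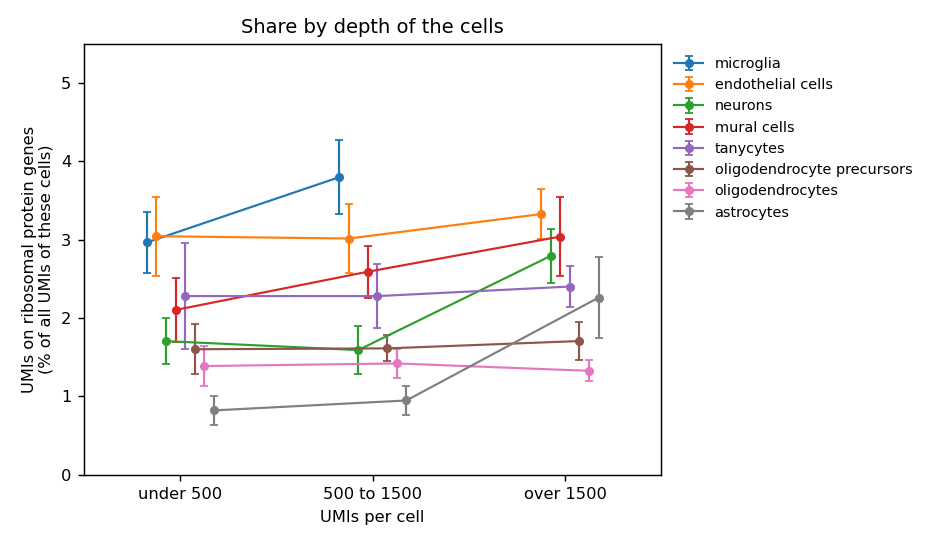
Percent of UMIs on the ribosomal protein genes (y axis) against the UMIs per cell in 3 ranges (x axis), 1 line per cell class, with no point for microglia over 1500 UMIs (12 cells), with points as means and bars as SD over libraries. Neurons go from 1.59% at 500 to 1500 UMIs to 2.79% above, astrocytes from 0.949% to 2.26%, and endothelial cells stay between 3.02% and 3.33%.

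Member by member, each class was compared with the mean of the other 7 within libraries, by edgeR's quasi-likelihood test with Benjamini-Hochberg adjustment over the 5958 genes tested, and a gene was called at an adjusted p under 0.05. In microglia 66 of 79 members were higher and 1 was lower, where 18.9% of all genes tested were higher and 23.9% lower; the members' median log2 fold change was 0.95 and that of all genes -0.41. Endothelial cells, which line the vessels, had 60 members higher and 1 lower (all genes, 25.2% and 22.3%; medians 0.51 and -0.13). Among cells of 500 to 1500 UMIs only, 65 of 74 members were higher in microglia and 63 of 74 in endothelial cells (all genes, 19.6% and 25.8%). Mural cells and tanycytes were too few in this range, so each comparison within it leaves out these classes. Without KO replicate 3, 39 members were higher in endothelial cells.

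Microglia were highest of the 8 classes for 51 of the 79 members. Rplp1 stood at 2379, 1913 and 2189 CPM in WT and 2376, 2515 and 3346 CPM in KO, above 1149.6 ± 221 CPM (SD, n = 6) in endothelial cells, the next class, without overlap. Its log2 fold change in microglia was 1.83 ± 0.10 (SE; edgeR adjusted p = 8.71e-35), in the same direction in 6 of 6 libraries. The small-subunit gene Rps12 had 543, 514 and 704 CPM in WT and 969, 1015 and 1245 CPM in KO. All 3 KO values of Rps12 lay above all 3 WT values in this class, and its log2 fold change against the other classes was 1.80 ± 0.13 (SE; edgeR adjusted p = 1.07e-23). Rps29, which encodes a zinc-binding protein of the small subunit, followed with 1.65 ± 0.13 (SE; edgeR adjusted p = 1.58e-22), and the stalk genes Rplp0 and Rplp2 with 1.44 ± 0.14 and 1.37 ± 0.13. The paralog Rpl22l1 alone was called lower, at -0.73 ± 0.31 (SE; edgeR adjusted p = 0.0462) from 21 UMIs, and lost that call with DESeq2, at Leiden resolution 0.5, in cells of 500 to 1500 UMIs and without any 1 of the libraries except WT replicate 2.

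In endothelial cells the members furthest up were Rpl38, at 1.01 ± 0.11 (SE; edgeR adjusted p = 1.95e-13), Rpl22, at 1.00 ± 0.14 (SE; edgeR adjusted p = 3.86e-10), and Rps20, at 0.96 ± 0.13 (SE; edgeR adjusted p = 2.26e-10). Rpl38 had 719, 234 and 332 CPM in WT and 575, 672 and 546 CPM in KO, with WT replicate 2 lowest, in the class where this gene was highest on average. Rpl24 went the other way, at -1.63 ± 0.41 (SE; edgeR adjusted p = 0.000517): it had 9 UMIs in all 722 endothelial cells, or 10.9, 16.7 and 13.8 CPM in WT and 12.2, 0 and 26.2 CPM in KO.

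Astrocytes had 71 of 79 members lower and none higher (all genes, 16.8% lower and 31% higher; medians -0.62 and 0.05). Among the lowest were Rps3a1, at -1.23 ± 0.18 (SE; edgeR adjusted p = 2.91e-09), Rps16, at -1.13 ± 0.29 (SE; edgeR adjusted p = 0.000641), and Rps6, at -0.97 ± 0.22 (SE; edgeR adjusted p = 7.84e-05), whose product is the small-subunit protein phosphorylated downstream of mTOR. Rps3a1 had 35.5, 77.1 and 80.7 CPM in WT and 34.7, 38 and 73.8 CPM in KO, all below the lowest neuronal value of 116 CPM. In cells of 500 to 1500 UMIs 68 of 74 members were lower in astrocytes (all genes, 14.6%). In cells with at least 500 genes 22 of 80 were lower and 2, Rplp1 and Rps29, higher (all genes, 13.9% and 22.3%), the median was -0.19, and Rps6 lost its call. Microglia, the class of highest share, and mural cells were too few at that filter. Astrocytes were therefore compared with fewer classes there, and the part of this in the change was not tested. The 1 member of positive sign in the comparison over all cells did not pass an unadjusted p of 0.05, and DESeq2 called 66 lower and 0 higher.

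The oligodendrocyte lineage was low as well. Oligodendrocyte precursors, the dividing glia that give rise to myelinating cells, had 66 of 79 members lower and 1 higher (all genes, 16% and 23.5%; medians -0.86 and -0.01), and in cells of 500 to 1500 UMIs 50 of 74 lower (all genes, 13.3%). Their lowest members were Rps27, at -1.59 ± 0.16 (SE; edgeR adjusted p = 1.02e-15), Rpl27a, at -1.37 ± 0.25 (SE; edgeR adjusted p = 1.69e-06), and Rpl21, at -1.34 ± 0.22 (SE; edgeR adjusted p = 2.15e-07). Rps27, a zinc-finger protein of the small subunit, averaged 146 ± 50.7 CPM in precursors and 382 ± 84.1 CPM in neurons (SD, n = 6). Oligodendrocytes had 58 members lower and 1 higher (all genes, 27.6% and 27.2%; medians -0.49 and -0.18), and in cells of 500 to 1500 UMIs 22 of 74 lower and 4, Rpl4, Rplp0, Rps3 and Rpsa, higher (all genes, 25% and 27.1%; medians -0.22 and -0.17). Over all cells the lowest were Rpl22l1, at -1.31 ± 0.19 (SE; edgeR adjusted p = 1.66e-09), Rpl12, at -0.97 ± 0.17 (SE; edgeR adjusted p = 6.59e-07), and Rpl13, at -0.94 ± 0.11 (SE; edgeR adjusted p = 4.25e-12). The 1 member called higher there, Rpsa, which encodes a small-subunit protein also known as a laminin receptor, stood at 0.34 ± 0.13 (SE; edgeR adjusted p = 0.0249) and lost that call when scaled by total UMIs or by UMIs outside the list, with doublets kept, and without WT replicate 1.

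Rpl13, a large-subunit gene, was the exception in precursors. It had 1133, 959.8 and 911 CPM in WT and 1031, 875 and 1191 CPM in KO, every value above the highest microglial value of 782 CPM. Microglia, the next class, averaged 629 ± 102 CPM, neurons 350.5 ± 45.2 CPM, and astrocytes and mature oligodendrocytes 189 ± 49.1 CPM and 189 ± 46.7 CPM (SD, n = 6). Its log2 fold change in precursors was 1.24 ± 0.10 (SE; edgeR adjusted p = 2.04e-21), higher in 6 of 6 libraries, against a member median of -0.86, and it was called in every setting tried. On GRCm38 in GENCODE M21, Rpl13 lies at chr8:123102350-123105244 on the plus strand and overlaps Gm20388 on the same strand, so reads of the 2 cannot be told apart here.

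Neurons had 47 of 79 members higher and 6 lower (all genes, 44.1% and 26%; medians 0.31 and 0.14). In cells of 500 to 1500 UMIs the direction of the list turned: 3 of 74 members, Rpl22l1, Rpl27a and Rps4y2, were higher and 31 lower (all genes, 35.1% and 22.2%), with a median of -0.27. With DESeq2's scaling and test, 36 were higher and 16 lower. Rpl22l1, Rpl24 and Rps4y2 stayed called higher, and Rpl22, Rplp0 and Rps27l lower, in neurons under every setting in which they were tested.

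Rpl22l1 was the most neuronal member, and its relative Rpl22 was low in neurons. Rpl22l1 had 390.3, 366 and 422 CPM in WT and 422, 331 and 513 CPM in KO in neurons, and Rpl22 had 103, 89 and 88.1 CPM in WT and 127, 114 and 142 CPM in KO. Every neuronal value of Rpl22l1 exceeded every value in any other class, of which tanycytes were next at 234 ± 40.1 CPM and oligodendrocytes lowest at 45.2 ± 12.2 CPM (SD, n = 6). Rpl22 was highest in endothelial cells, at 402 ± 62.2 CPM, and microglia, at 377 ± 147 CPM, which did not differ beyond their spread. In neurons against the other classes the log2 fold change was 1.94 ± 0.10 (SE; edgeR adjusted p = 3.17e-37) for Rpl22l1 and -1.07 ± 0.11 (SE; edgeR adjusted p = 2.96e-16) for Rpl22, each in 6 of 6 libraries. Within cells of 500 to 1500 UMIs these were 1.40 and -1.26 (edgeR adjusted p = 4.56e-14 and 8.76e-11). Rpl22l1 took 78.6% ± 2.91 of the UMIs of the pair in neurons, 55.8% ± 5.81 in tanycytes, 41.7% ± 7.06 in astrocytes and 38.3% ± 7.59 in precursors. It took 27.5% ± 6.35 in oligodendrocytes, 24.1% ± 13.1 in mural cells, 19.9% ± 6.50 in endothelial cells and 17.0% ± 6.76 in microglia (SD, n = 6). The pooled neuronal share had an exact 95% binomial interval of 76.8% to 79.7% and the microglial share one of 10.2% to 23.5%, which cover counting error only. Rpl22l1 lies at chr3:28805436-28807424, where Gm33051 overlaps it on the other strand, and Rpl22 at chr4:152325742-152334071, both on the plus strand of GRCm38. Over the 58 tested members with a window the medians were close: in neurons the median log2 fold change was 0.32 for the 22 members with a run and 0.32 for the 36 without, and in microglia 0.96 and 0.93.

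Rps27l and Rps27 had another order. Rps27l took 54.2% ± 11.8 of the UMIs of its pair in oligodendrocyte precursors, 45.4% ± 7.22 in oligodendrocytes and 36.7% ± 6.92 in astrocytes. The share was 31.0% ± 12.3 in mural cells, 30.9% ± 9.21 in tanycytes, 30.1% ± 6.78 in endothelial cells, 20.3% ± 3.19 in neurons and 14.6% ± 7.41 in microglia (SD, n = 6). Rps27l itself averaged 177 ± 65.8 CPM in precursors and 230.2 ± 34 CPM in endothelial cells, where Rps27 averaged 551 ± 130.2 CPM (SD, n = 6). Neurons were lower than the other classes for Rps27l, at -0.63 ± 0.11 (SE; edgeR adjusted p = 3.47e-07), and higher for Rps27, at 0.30 ± 0.09 (SE; edgeR adjusted p = 0.00133). The call of Rps27 was lost in cells of 500 to 1500 UMIs, where it stood at 0.02 ± 0.14 (SE; edgeR adjusted p = 0.952), with DESeq2, and without WT replicate 1 or KO replicate 1.

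Rps4y2, which GENCODE M21 lists as Rps4l, a transcribed processed pseudogene, at chr6:148354656-148355598, had 175, 116 and 165 CPM in WT and 152, 122 and 164 CPM in KO in neurons, a log2 fold change of 1.07 ± 0.12 (SE; edgeR adjusted p = 8.88e-14) against the other classes. It held 48.9% ± 5.80 of the UMIs of itself and Rps4x in neurons, 40.1% ± 9.40 in tanycytes and 16.1% ± 19.6 in microglia (SD, n = 6), where it had 17 UMIs. Tmtc1 overlaps it on the other strand, and whether the authors' counts used strand is not given in the sources used here. Rpl7l1, whose product works in ribosome assembly, took 37.2% ± 5.41 of the UMIs of itself and Rpl7 in astrocytes and 17.8% ± 14.7 in microglia. Rpl39l had 5 of the 3195 UMIs of its pair with Rpl39, and Rpl10l 10 of the 3423 with Rpl10.

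**Figure D3:**
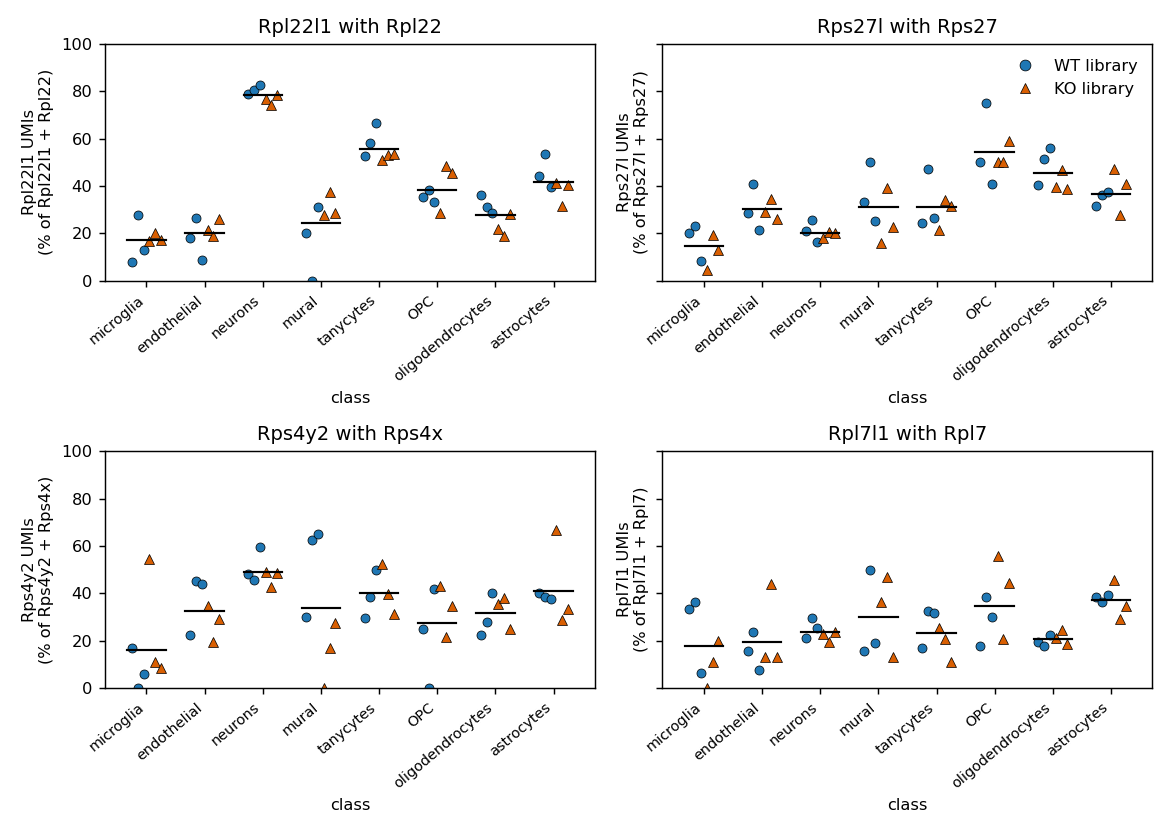
Percent of the UMIs of a paralog and its parent gene that fell on the paralog (y axis) by cell class (x axis; OPC, oligodendrocyte precursors), 1 panel per pair, with circles for WT libraries, triangles for KO libraries and a line at the mean of the 6. Rpl22l1 averages 78.6% of its pair in neurons and 17.0% in microglia, Rps27l 54.2% of its pair in precursors and 14.6% in microglia.

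Rpl24, a large-subunit gene at chr16:55966275-55971435 that overlaps Gm28037 on the same strand, was the second member that set neurons apart. Its neuronal values were 141, 123 and 131 CPM in WT and 116, 126 and 79.1 CPM in KO, with KO replicate 3 the lowest. Tanycytes averaged 62.6 ± 16.6 CPM, precursors 59.6 ± 9.17 CPM, astrocytes 23.1 ± 3.97 CPM and endothelial cells 13.3 ± 8.52 CPM (SD, n = 6), and the log2 fold change in neurons was 1.66 ± 0.14 (SE; edgeR adjusted p = 9.48e-21). The stalk base gene Rplp0 was low in neurons at 163 ± 27.3 CPM against 607 ± 83.2 CPM in microglia and 386 ± 88.6 CPM in tanycytes, with a log2 fold change of -0.85 ± 0.09 (SE; edgeR adjusted p = 5.76e-15). Of the other stalk genes Rplp2 was higher in neurons, at 0.34 ± 0.08 (SE; edgeR adjusted p = 8.71e-05), and Rplp1, at -0.03 ± 0.09 (SE; edgeR adjusted p = 0.839), was not called there. In cells of 500 to 1500 UMIs Rplp2 stood at -0.23 ± 0.15 and was not called, nor was it without KO replicate 1, and Rplp1 was called lower, at -0.64 ± 0.12 (SE; edgeR adjusted p = 0.177 and 6.84e-07).

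Mural cells, the pericytes and smooth muscle around vessels, had 11 of 79 members higher and 1 lower (all genes, 22.4% and 13.9%; medians 0.25 and -0.05). Highest were Rps27, at 0.65 ± 0.14 (SE; edgeR adjusted p = 8.35e-05), Rplp2, at 0.58 ± 0.14 (SE; edgeR adjusted p = 0.000217), and Rpl22, at 0.58 ± 0.18 (SE; edgeR adjusted p = 0.0066). The 1 lower was Rpl3, at -0.45 ± 0.17 (SE; edgeR adjusted p = 0.0299), a call lost with both other scalings and without WT replicate 1, WT replicate 3 or KO replicate 2. Without KO replicate 3 the higher members numbered 3, without WT replicate 2 6 and without KO replicate 2 7. Scaled by total UMIs they numbered 25. Tanycytes had 12 higher and 4 lower (all genes, 29.5% and 16.8%; medians 0.01 and 0.05), and 5 higher without KO replicate 1. Highest there were Rpl22l1, at 1.02 ± 0.14 (SE; edgeR adjusted p = 4.28e-10), Rpl41, which encodes a very short basic protein, at 0.82 ± 0.10 (SE; edgeR adjusted p = 5.53e-12), and Rps2, at 0.63 ± 0.11 (SE; edgeR adjusted p = 5.39e-07). Rpl41 had 995, 435 and 707 CPM in WT and 685, 927 and 664 CPM in KO in tanycytes, with WT replicate 2 lowest. Rps12, Rpl13 and Rpl38 were the lowest in tanycytes, at -0.56 ± 0.13, -0.52 ± 0.11 and -0.39 ± 0.12.

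**Figure D4:**
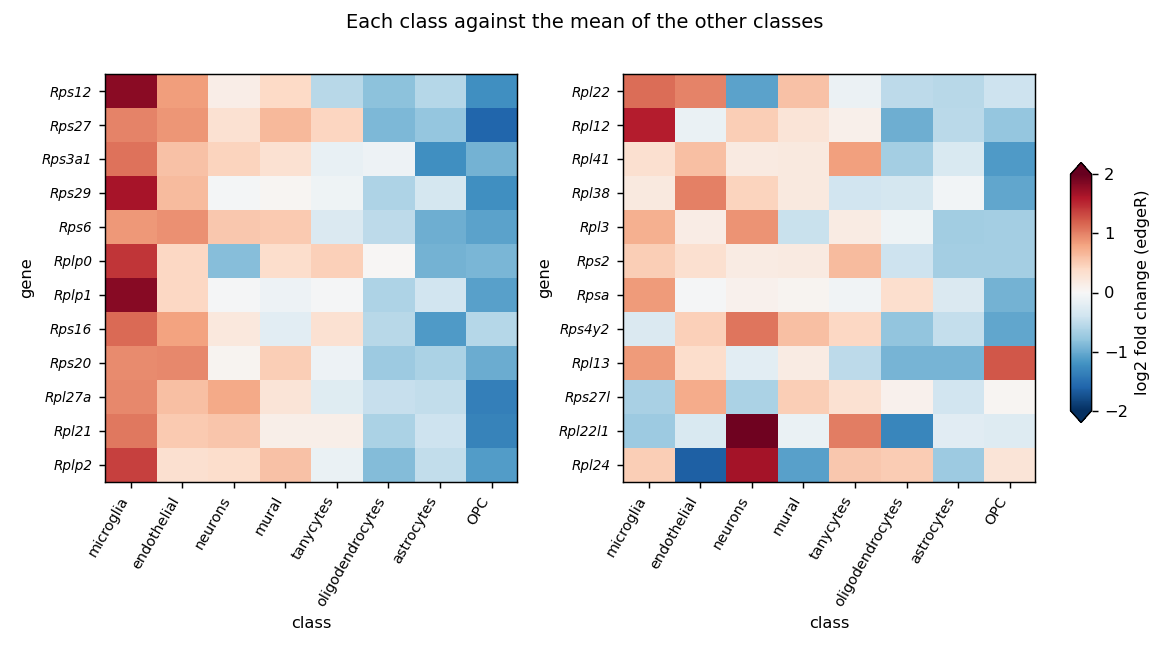
Log2 fold change by edgeR of 24 members (rows, in 2 columns), those furthest up or down among the called members of a class, in each of 8 cell classes (x axis; OPC, oligodendrocyte precursors) against the mean of the other classes, in colours from -2 to 2, with values beyond that range in the end colours. Most rows are high in microglia and endothelial cells and low in astrocytes and the oligodendrocyte lineage, while Rpl22l1 and Rpl24 are high in neurons and Rpl13 in precursors.

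The range of a gene over the classes was taken next. On the scale log2(CPM + 1) the range had a median of 1.67 for the 79 members and 3.15 for all 5958 genes tested. It was 2.27 for the 2316 other genes between the 10th and 90th percentile of the members' level. Rpl22l1 (3.14), Rpl24 (3.07), Rps12 (2.45), Rpl13 (2.42) and Rpl10 (2.38) had the widest ranges, and Rpl7l1 (1.00), Rpl19 (1.10), Rpl27 (1.18) and Rpsa (1.22) the narrowest. The lowest class was astrocytes for 44 members, oligodendrocytes for 25 and precursors for 7. The balance of the subunits moved over a few percent: small-subunit symbols took 42.0% ± 1.60 of member UMIs in precursors and 47.8% ± 1.76 in mural cells, the lowest and highest classes, whose values did not overlap (SD, n = 6). Rpl13, the large-subunit gene that was high in precursors, counts in this balance, which was not recomputed without it.

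Other genes of the translation machinery were taken from lists. The 3 ribosomal products that the symbol rule misses, Fau, Gnb2l1 (the scaffold RACK1) and Rpl36al, were all higher in microglia and all lower in astrocytes. Outside the list, 16 tested genes have transcripts with a known terminal oligopyrimidine tract, mostly of other translation factors. Of these, 6 were higher and 1 lower in microglia, 2 and 11 in astrocytes, 1 and 10 in precursors, and 10 and 4 in neurons. The shares of all genes called in each class are those given above. Genes of the mitochondrial ribosome, which translates mitochondrial mRNAs, ran differently. Of 44 tested, 0 were higher and 19 lower in microglia (27 at an unadjusted p under 0.05 in either direction), where 18.9% and 23.9% of all genes were. In astrocytes 14 were higher and 2 lower (all genes, 31% and 16.8%), and in neurons 35 and 0 (all genes, 44.1% and 26%). Of 13 tested ribosome biogenesis genes 9 were higher and 2 lower in neurons (all genes, 44.1% and 26%). In endothelial cells 2 of these were higher and 5 lower (all genes, 25.2% and 22.3%). The genes outside the list whose log2(CPM + 1) went most closely with the summed member CPM over the 48 sums of 8 classes and 6 libraries were Gpx1 (Pearson r = 0.90), Ly6e (0.84), Arpc2 (0.84), Gnb2l1 (0.83), Ier3 (0.82), Mcl1 (0.81), Eef1a1 (0.80), Atf3 (0.80), Ifi35 (0.80) and F11r (0.79). These 48 sums share libraries, depth and classes, and Fau followed at 0.73 and the neuronal elongation factor Eef1a2 at -0.30.

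Among neurons the inhibitory (GABAergic) cells, summed over their clusters, had the higher share. GABAergic neurons averaged 2.90% ± 0.351 and glutamatergic neurons 2.38% ± 0.318 (SD, n = 6), and the GABAergic share was the higher in 6 of 6 libraries. By edgeR 29 of 81 members were higher in GABAergic neurons and 0 lower (all 8084 genes tested, 4.74% higher and 6.28% lower), and 79 of 81 had a positive sign, with a median log2 fold change of 0.25 against 0.00 for all genes; the 2 of negative sign, Rpl10a and Rpl29, did not pass an unadjusted p of 0.05. Rps27 was highest at 0.48 ± 0.08 (SE; edgeR adjusted p = 3.36e-05), followed by Rps27l at 0.46 ± 0.14 (SE; edgeR adjusted p = 0.0254) and Rpl27a at 0.44 ± 0.11 (SE; edgeR adjusted p = 0.00584). Rps27 had 619.7, 299.9 and 525 CPM in WT and 492, 375 and 401 CPM in KO in GABAergic neurons and 413, 190.3 and 329.6 CPM in WT and 343, 314 and 289 CPM in KO in glutamatergic neurons, lower in each library. The median depth was 1964 UMIs per GABAergic and 2412.5 per glutamatergic cell. DESeq2 called 6 members higher and 0 lower, 16 were called without WT replicate 1, 18 without KO replicate 3 and 70 at Leiden resolution 0.5. In cells of 500 to 1500 UMIs 5 of 42 were higher, Rpl14, Rpl32, Rpl41, Rps3 and Rps9 (all genes, 7.8%).

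The neuronal clusters spread more than the 2 transmitter classes. The cluster led by Agrp and Npy, peptides of hunger-promoting neurons of the arcuate nucleus, had 4.24% ± 0.439 (SD, n = 6) of its UMIs on the members, and a cluster with Tac2 among its leading genes had 3.95% ± 0.886 (SD, n = 4 libraries with at least 5 cells). Clusters led by Pomc had 3.32% ± 0.240, by Avp and Oxt 3.07% ± 0.461 (n = 5), by Vip 2.42% ± 0.304, by Tac1 1.92% ± 0.151 and by Foxb1 1.63% ± 0.267 (SD, n = 6 unless given). By their markers the Agrp, Pomc and Vip clusters were GABAergic, and the Tac2, Avp and Oxt, Tac1 and Foxb1 clusters glutamatergic. A GABAergic cluster led by Pthlh and Crym had 2.08% ± 0.308 (SD, n = 6). The clusters of the 2 types thus overlapped in share. A cluster of 479 cells, led by 2810055G20Rik, Gm23935 and Leng8, had 0.875% ± 0.285, with a median of 701 UMIs per cell, 3.11% Malat1 and 9.32% mitochondrial UMIs. Without this cluster, an alternative added after seeing the data, neurons had 53 members higher and 5 lower.

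Between genotypes the member share overlapped in the 8 classes and both transmitter classes; in the cluster of 44 cells it was 6.66% and 6.53% in WT replicates 1 and 2 and 8.26%, 10.1% and 9.54% in KO, without overlap, and it was not tested. Over all cells it was 2.22% ± 0.246 in WT and 2.44% ± 0.260 in KO (SD, n = 3 each). No member was called by edgeR in all cells, in any of the 8 classes or in the 2 transmitter classes, and few other genes were: 0% of the genes tested in all cells, precursors, endothelial cells, tanycytes and glutamatergic neurons, 0.0105% in neurons, 0.0244% in GABAergic neurons, 0.0476% in astrocytes, 0.119% in mural cells, 0.138% in microglia and 0.165% in oligodendrocytes. DESeq2 called none either. In counts simulated for neurons, the edgeR genotype test recovered 61% of 100 genes changed by a log2 fold change of 1. It recovered 88% of 100 genes changed by 2, so smaller differences can go uncalled. In the measured counts, at an unadjusted p under 0.05 there were 7 of 81 members in all cells (all genes, 2.05%) and 11 of 81 in neurons (4.76%). In all cells 63 of 81 members had a positive log2 fold change, KO over WT, with a median of 0.14 against 0.01 for all genes tested. The genotype difference did not differ between neurons and all other cells for any of 81 members at an adjusted p under 0.05 (all genes, 0.00793% called; 0 members at an unadjusted p under 0.05; 0 called by DESeq2).

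Rps16, a small-subunit gene at chr7:28350652-28353155, was the member of smallest p. In neurons it had 40.5, 25.2 and 28.3 CPM in WT and 59.1, 94.4 and 64.4 CPM in KO, from 332 UMIs, and every KO value lay above every WT value. Its log2 fold change was 1.13 ± 0.24 (SE; unadjusted p = 0.000114, edgeR adjusted p = 0.217), so it did not pass the threshold, and over the settings tried the adjusted p ran from 0.00178, with no filter on low counts, to 0.80, without KO replicate 2. In all cells Rps16 had 38.7, 29.1 and 21.3 CPM in WT and 53.4, 83 and 56.6 CPM in KO, again without overlap, at 1.10 ± 0.26 (SE; unadjusted p = 0.002, edgeR adjusted p = 1). Rps21, also of the small subunit, had 644, 511 and 572 CPM in WT and 977, 672 and 899 CPM in KO in neurons, without overlap, at 0.56 ± 0.17 (SE; unadjusted p = 0.0026, edgeR adjusted p = 0.975). Rps12 had 307, 222 and 254 CPM in WT and 421, 292 and 457 CPM in KO, with KO replicate 2 below WT replicate 1, at 0.57 ± 0.18 (SE; unadjusted p = 0.00461, edgeR adjusted p = 0.975). In all, 7 of 81 members had every KO library above every WT library in all cells and 0 below (all genes, 3.88% and 3.46%): Rpl30, Rplp1, Rps12, Rps16, Rps20, Rps21 and Rpsa. In neurons there were 5 (Rpl15, Rpl22, Rps16, Rps21 and Rpsa) and 0 of 81 (5.45% and 4.59%), in microglia 8 and 1, Rpl37a, of 60 (7.02% and 5.23%), and in tanycytes 9 and 0 of 78 (4.32% and 4.37%). Oligodendrocytes had 5 (Rpl12, Rpl22, Rplp1, Rps20 and Rps21) and 0 of 73 (5.85% and 5.98%), mural cells 7 and 0 of 46 (5% and 4.05%), and precursors 4 and 3 of 57 (6% and 5.58%). Astrocytes had 1 and 0 of 72 (3.79% and 4.72%) and endothelial cells 1 and 0 of 68 (Rpsa; 4.49% and 5.17%). GABAergic neurons had 4 (Rpl15, Rpl22, Rps16 and Rpsa) and 0 of 81 (6.08% and 4.57%) and glutamatergic neurons 4 (Rpl22, Rps16, Rps21 and Rpsa) and 0 of 80 (6.01% and 5.5%). KO replicate 3, with the highest share of all, is 1 of the 3 KO libraries in these counts, and WT replicate 2, with the lowest, 1 of the 3 WT libraries.

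**Figure D5:**
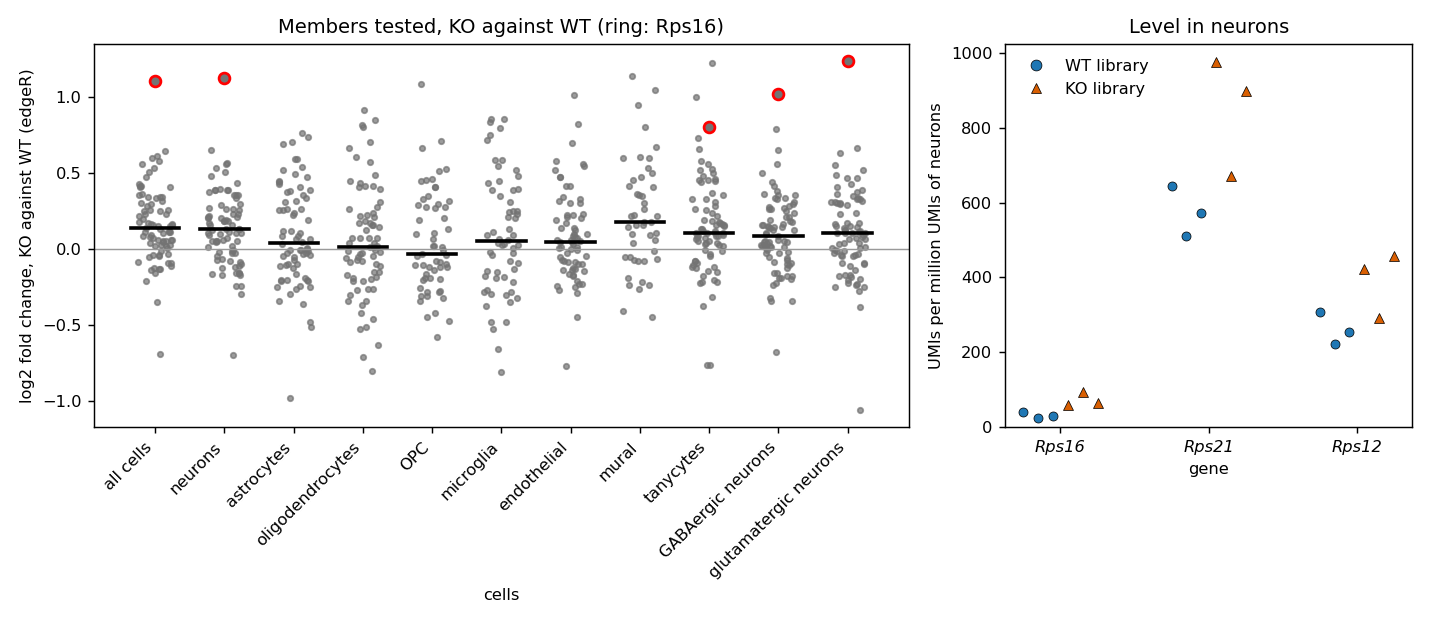
Left, log2 fold change (KO over WT) of each tested member in 11 comparisons (OPC, oligodendrocyte precursors), with a line at the median and Rps16 ringed in red where it was tested; right, CPM of Rps16, Rps21 and Rps12 in neurons, 1 point per library. Rps16 has 25.2 to 40.5 CPM in WT and 59.1 to 94.4 CPM in KO neurons, and no member passed the threshold.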

How the data were processed

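Gene expression was measured by Drop-seq in 6 libraries of mouse hypothalamus, 3 WT and 3 IDOL KO. The authors deposited tables of UMI counts per gene and cell, whole numbers without normalization, in which every gene has UMIs in at least 3 cells and every barcode at least 200 genes. The submitters' processing notes name bcl2fastq, STAR 2.5.0c, GRCm38 and mm10; the counting program, its annotation, its use of strand and the choice of barcodes are not given in the sources used here. Cells with at least 300 genes and at most 20% mitochondrial UMIs were kept, Scrublet calls (1.23%) were left out, and cells were clustered in scanpy 1.11.5 (Leiden resolution 1) without the members among the variable genes. Clusters were named from fixed markers, by a rule set after the cells had been seen: 3 markers at least 4-fold up, or 7 of 10 for neurons. A difference between classes may therefore come from these rebuilt names.

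Counts were summed per library and class, because cells are not replicates, and tested with edgeR 4.0.16 (quasi-likelihood F-test, filterByExpr, TMM, Benjamini-Hochberg over all genes tested, threshold 0.05) in R 4.3.3, with the library as a block between classes. DESeq2 1.42.0, other scalings, filters, cell sets and clusterings were alternatives, and the scripts were tested on simulated data. Kept UMIs per library ran from 1514439 to 3644549; depth sets the precision of each count, and intervals cover counting error only. Replicate libraries of a group differed beyond sampling noise. The members and gene lists were chosen with earlier results of these data known. Named genes are the 10 members of highest CPM, the 3 highest and 3 lowest called in each class contrast, the 3 of smallest p between genotypes in the comparisons described, paralogs with their parents, and the 5 widest and 5 narrowest over classes; a few of these are not reported here, and others were chosen after their values were seen.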

Additional observations from a re-analysis of the deposited data

Results flagged for a closer look

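Outside the members, 17 rows of ribosomal pseudogenes with -ps symbols held 491 UMIs in the 9333 cells, against 353703 UMIs on the members. These rows entered no comparison; reads of a member and of its processed copies can be hard to assign, and the part of that in the member counts was not tested. Groups of 3 libraries were not screened for single outlying values.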

How the results depend on the processing

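The high count in microglia and the low count in precursors depended little on the processing, while counts in neurons, oligodendrocytes, mural cells, tanycytes and astrocytes depended on it. The paralog shares were recomputed only with at least 500 genes per cell and without 1 library at a time. Of these values 224 of 224 stayed within 1 SD. Leaving out 1 of 6 libraries cannot move a mean by 1 SD, so most of these values could not have failed. Of 505 recomputed counts 448 stayed within a ratio of 1.5, or at 0, and of 142 member shares 135 stayed within 1 SD. Shares without 1 library have the limit just given. Of 1238 values of single genes 1202 kept their sign and call. Among the values of single genes 33 lost and 2 gained their call, and the interaction of Rpsa (-0.23) turned to 0.54 in cells of 500 to 1500 UMIs. In those cells, neurons had 3 members higher and 31 lower, oligodendrocytes 4 and 22, microglia and endothelial cells 0 lower, and GABAergic neurons 5 higher; shares were 1.88% in all cells, 1.59% in neurons, 0.949% in astrocytes, 2.29% in GABAergic and 1.35% in glutamatergic neurons. Mural cells and tanycytes were too few there, microglia and mural cells at 500 genes, and mural cells at resolution 0.5. With at least 500 genes astrocytes had 2 higher, 22 lower and a share of 1.64%, and tanycytes 19 and 2. DESeq2 gave 16 lower in neurons, 0 lower in microglia and 6 higher in GABAergic neurons. Without a filter on low counts 2 members were called between genotypes in neurons (Rps16 and Rpl10) and 1 in glutamatergic neurons (Rpl10, -1.05); 3 were lower in neurons, 2 lower in microglia, 2 higher in mural cells and 2 lower in tanycytes. Scaled by total UMIs, oligodendrocytes had 0 higher, microglia 2 lower, mural cells 25 higher and 0 lower, and tanycytes 19 and 2; by UMIs outside the list these were 0, 2, 26 and 0, and 19 and 2. Scaling by total UMIs moved the median of all genes by -0.29 in oligodendrocytes, -0.27 in astrocytes and 0.32 in precursors, while the members' median relative to all genes hardly moved. With doublets kept, oligodendrocytes had 0 higher, microglia 2 lower and mural cells 6 higher and 2 lower. At Leiden resolution 0.5, microglia had 0 lower, GABAergic neurons 70 higher and glutamatergic neurons a share of 2.02%. Without the neuron cluster of lowest share, chosen after seeing the data, microglia had 2 lower. Leaving out 1 library gave 1 to 2 members higher in oligodendrocytes, 0 to 1 lower in microglia, 39 to 63 higher in endothelial cells, 3 to 11 higher and 0 to 2 lower in mural cells, 5 to 13 higher and 3 to 7 lower in tanycytes, and 16 to 28 higher in GABAergic neurons. The causes were not tested. With the replicate number as a block, 0 members were called between genotypes in all 11 comparisons. At an unadjusted p under 0.05 there were then 14 in all cells and 16 in neurons. Deviations of libraries sharing a number correlated at 0.253, -0.153 and 0.226, and those of the other pairs of WT and KO libraries from -0.362 to 0.145. With 3 libraries a group these values do not settle whether the numbers pair the libraries. Low depth limits members with few UMIs, such as Rpl24 with 9 in endothelial cells.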

Other observations

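Over the 6 libraries the members had a median coefficient of variation of 18.8%, against 14.4% for 2407 other genes of like level. Over all cells Rpl10, a large-subunit gene on the X chromosome (X:74270812-74273135, GRCm38), had 510.4, 137 and 75.8 CPM in WT and 115, 246 and 91.6 CPM in KO. WT replicate 1 was the highest for Rpl10 in 8 of 8 classes, 6.73-fold above the lowest library over all cells, and the coefficient of variation was 84.4%. All 50-base words of the last 300 bases of Rpl10 also occur in transcripts of 13 other genes. Rpl35 had a coefficient of variation of 71.9%, Rps16 of 47.4% and Rpl17 of 40.5%. Rpl8 was among the most even (4.39%), and 2 of 81 members exceeded 50%, or 2.47%, against 1.99% of those other genes.

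In tests against WT, members of smallest p other than those described lay in single classes. In endothelial cells Rpsa had 109, 66.8 and 179.7 CPM in WT and 232, 251 and 252 CPM in KO, without overlap, at 1.01 ± 0.36 (SE; unadjusted p = 0.00777, edgeR adjusted p = 0.833). In microglia Rps12 stood at 0.83 ± 0.24 (SE; unadjusted p = 0.00245, edgeR adjusted p = 0.286). In mural cells Rps12 stood at 1.05 ± 0.36 (SE; unadjusted p = 0.00787, edgeR adjusted p = 0.883), where 46 members were tested and none passed the threshold.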
